A study of Homo sapiens with 12 samples.

Results

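The 10 genes described here were the 8 ligands of the activating receptor NKG2D (ULBP1, ULBP2, ULBP3, MICA, MICB, RAET1E, RAET1G and RAET1L) and the metalloproteases ADAM10 and ADAM17, which cut such ligands from the cell surface. They were taken by gene name, and each matched 1 of the 58735 gene rows of the count tables. Transcripts were counted by bulk RNA-seq in human neuroblastoma cell lines, the MYCN-amplified line KELLY and the line SK-N-AS, which lacks that amplification. Each line had 3 samples with DMSO, the vehicle, and 3 with Erastin, all harvested at 24 h. The Erastin dose was 1 µM in KELLY and 2 µM in SK-N-AS, so that dose and cell line cannot be told apart. Cells had been plated in triplicate wells of 1 line each, with no further genotype or transgene, and p-values measure the spread between those 3 samples.

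NKG2D is carried by natural killer cells and by subsets of T cells, and its ligands are relatives of MHC class I molecules that healthy cells show sparingly and stressed or transformed cells show more. MICA and MICB span the membrane, whereas ULBP1, ULBP2 and ULBP3 are held by a glycosylphosphatidylinositol (GPI) anchor. Proteases of the ADAM family shed ligands into the medium, which lowers the amount left on the cell and can occupy the receptor. Erastin blocks the cystine-glutamate exchanger system xc-, drains glutathione and drives cells towards ferroptosis, a death by lipid peroxidation. These libraries measured transcripts only, and neither surface nor shed protein.

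Total counts per library lay between 24169796 and 29835670. MYCN had 116651 to 159802 counts in KELLY libraries and at most 11 in SK-N-AS libraries. In DMSO, 8 of 8 adrenergic neuroblastoma markers were higher in KELLY and 8 of 8 mesenchymal markers were higher in SK-N-AS (edgeR quasi-likelihood, adjusted p under 0.05), in a comparison where 30.9% of all genes tested were called higher and 30.3% lower in KELLY. Of the mesenchymal markers, FOSL1 and WWTR1 had at most 2 and 3 counts in KELLY with DMSO. They passed the filter only through SK-N-AS, so that their calls are no support. The receptor chain KLRK1 and its adaptors HCST and TYROBP reached at most 4 counts in any library. Of 13 blood cell markers, PTPRC, the pan-leukocyte antigen CD45, had 12835 to 16496 counts in SK-N-AS and 0 in KELLY. The other 12 markers together came to at most 1.56 CPM (counts scaled to the library total) in SK-N-AS libraries and 8.16 CPM in KELLY libraries, where HBB gave up to 208 counts. The part of these markers in the differences between lines was not tested. Counts also tracked gene GC content to a different degree in libraries of the same group, and values with that trend removed are given beside many of the results.

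Of the 8 ligands, 3 passed the filter on low counts in SK-N-AS, and ULBP1 did so only through its Erastin samples. Among those 3, ULBP1 was the one called with Erastin by the test across all genes. It was also higher in every Erastin sample of KELLY than in every DMSO sample. ULBP1 (ENSG00000111981.5) lies on the plus strand of chromosome 6 at chr6:149963943-149973715 (GRCh38), in the cluster that also holds ULBP2, ULBP3, RAET1E, RAET1G and RAET1L. Its neighbours ULBP2 and ULBP3 lay under the filter on low counts in SK-N-AS and were not tested there. In KELLY, with that filter and the counts as deposited, neither they nor ULBP1 passed adjustment by edgeR. The ULBP1 promoter is shown with those of ULBP2 and ULBP3. Each window covers 250 bases before and 50 bases after the annotated start and was taken from RefSeq (GRCh38.p14). Capitals mark matches on either strand to TGANGCAA and TGATGNAA, the core of the composite site read by C/EBP-ATF dimers such as ATF4 with a C/EBP partner, and to TGACG, the core of the cyclic AMP response element. These motifs were chosen after the ULBP1 promoter had been read.

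ULBP1 promoter, chr6:149963693-149963992, plus strand: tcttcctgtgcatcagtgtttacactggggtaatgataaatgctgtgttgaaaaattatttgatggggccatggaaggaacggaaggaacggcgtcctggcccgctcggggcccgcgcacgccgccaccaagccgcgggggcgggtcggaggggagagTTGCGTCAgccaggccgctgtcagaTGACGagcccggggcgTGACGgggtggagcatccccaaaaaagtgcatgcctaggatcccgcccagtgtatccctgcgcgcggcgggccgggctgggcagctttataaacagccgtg
ULBP2 promoter, chr6:149941764-149942063, plus strand: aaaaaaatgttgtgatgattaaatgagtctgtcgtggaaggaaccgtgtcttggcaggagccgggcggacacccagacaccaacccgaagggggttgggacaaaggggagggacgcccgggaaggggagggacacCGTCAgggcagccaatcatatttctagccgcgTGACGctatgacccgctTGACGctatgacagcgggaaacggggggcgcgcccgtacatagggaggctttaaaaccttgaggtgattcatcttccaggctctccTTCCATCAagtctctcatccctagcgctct
ULBP3 promoter, chr6:150069072-150069371, minus strand: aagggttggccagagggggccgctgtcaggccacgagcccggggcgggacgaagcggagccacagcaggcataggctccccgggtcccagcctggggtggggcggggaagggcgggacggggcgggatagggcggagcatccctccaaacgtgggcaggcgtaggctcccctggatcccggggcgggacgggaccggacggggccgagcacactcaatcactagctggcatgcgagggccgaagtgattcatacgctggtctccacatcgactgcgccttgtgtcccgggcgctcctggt

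The ULBP1 window held TTGCGTCA, the reverse complement of a TGANGCAA match, beginning 92 bases before the start and overlapping a CGTCA at 89 bases, and TGACG at 67 and 51 bases before the start. The ULBP2 window held CGTCA 115 bases and TGACG 83 and 66 bases before the start, and TTCCATCA, a reverse TGATGNAA match, beginning 20 bases after it. The ULBP3 window held none of these letters and had 6 copies of GGGCGG, the box bound by SP1. Over 35116 promoter windows of the same length, 3.22% held TGANGCAA, 3.62% held TGATGNAA, 24.6% held TGACG and 1.40% held TGACG at least 3 times. GGGCGG was present in 45% of the windows, and at least 3 times in 15.8%. Of the 10 members, ADAM10 and ADAM17 had TGACG once each on either strand, and no other member besides ULBP1 and ULBP2 held any of the first 3 motifs. These matches are descriptions of the letters only.

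In SK-N-AS, the ULBP1 counts were 0, 2 and 0 under DMSO and 13, 21 and 24 under Erastin. Every Erastin sample lay above every DMSO sample, and in DMSO the gene was at the edge of detection, so that it passed the filter only through the Erastin samples. Relative to library totals the mean was 0.0259 ± 0.0449 CPM (SD, n = 3) with DMSO and 0.705 ± 0.225 CPM with Erastin. Summed over the 3 libraries, 58 counts against 2 made ULBP1 28.1-fold higher, with a 95% exact counting interval of 7.43 to 237 that covers counting error only. The edgeR quasi-likelihood test gave a log2 fold change of 4.58 (SE 0.80, 95% interval 3.06 to 6.56) and an adjusted p of 0.0144. At that threshold 0.659% of 16095 genes were called in this line, and 2.67% passed the threshold of the methods described below, as ULBP1 did. The call held in the 13 of 14 alternatives that tested the gene, with adjusted p between 1.11e-06 and 0.0430 (edgeR or DESeq2). The alternative that asked for at least 10 counts in every library did not test it, so that these calls share the limit of the filter. Without DMSO replicate 2, the only DMSO library with a ULBP1 count, the fitted log2 fold change was 7.28 and depends on the prior count (edgeR adjusted p = 0.0419).

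In KELLY, the DMSO samples had 115, 82 and 108 ULBP1 counts and the Erastin samples 213, 273 and 301. The groups did not overlap, and the lowest Erastin sample had 8.81 CPM against 4.51 CPM in the highest DMSO sample. The mean was 3.89 ± 0.587 CPM (SD, n = 3) with DMSO and 10.2 ± 1.19 CPM with Erastin, a ratio of summed counts of 2.62 (95% counting interval 2.29 to 3.00). The log2 fold change was 1.38 (SE 0.20, 95% interval 0.91 to 1.86) and passed the threshold used in the study's methods, an unadjusted p of at most 0.05 with a fold change of at least 1.5, as did 2.03% of 16258 genes. It did not pass Benjamini-Hochberg adjustment (edgeR adjusted p = 0.319), which 1 gene of 16258 (0.00615%) did. With each library's GC trend removed, the log2 fold change was 1.52 (SE 0.14) and the edgeR adjusted p 0.00297, where 0.191% of genes were called. DESeq2 gave an adjusted p of 2.38e-04 and edgeR without the filter on low counts gave 0.0171. With the GC correction, these were the only 3 of 14 alternatives in which ULBP1 was called. Over all 14 the adjusted p ranged from 2.38e-04 to 0.961 (edgeR or DESeq2). In the 6 edgeR fits that each left out a replicate, the adjusted p was 0.362 to 0.868.

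The levels of ULBP1 in the lines remained apart under Erastin. The 0.481 to 0.931 CPM of Erastin-treated SK-N-AS lay under the 3.35 to 4.51 CPM of KELLY with DMSO. Summed counts of the latter were 5.55-fold those of the former (95% counting interval 4.18 to 7.49). Between Erastin-treated samples KELLY was 14.5-fold higher (11.1 to 19.3). The interaction of treatment and cell line, as the log2 response of KELLY minus that of SK-N-AS, was -3.18 (SE 0.80, unadjusted p = 0.00101 from edgeR). It did not pass adjustment over 18239 genes (edgeR adjusted p = 0.775, 0.122 to 1 over 18 alternatives), where 1 gene (0.00548%) did, so the responses of the lines were not shown to differ. Without SK-N-AS DMSO replicate 2 the fitted interaction was -5.86 (edgeR adjusted p = 0.693). A fold against 2 counts has a wide error, and the doses differed.

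**Figure D1:**
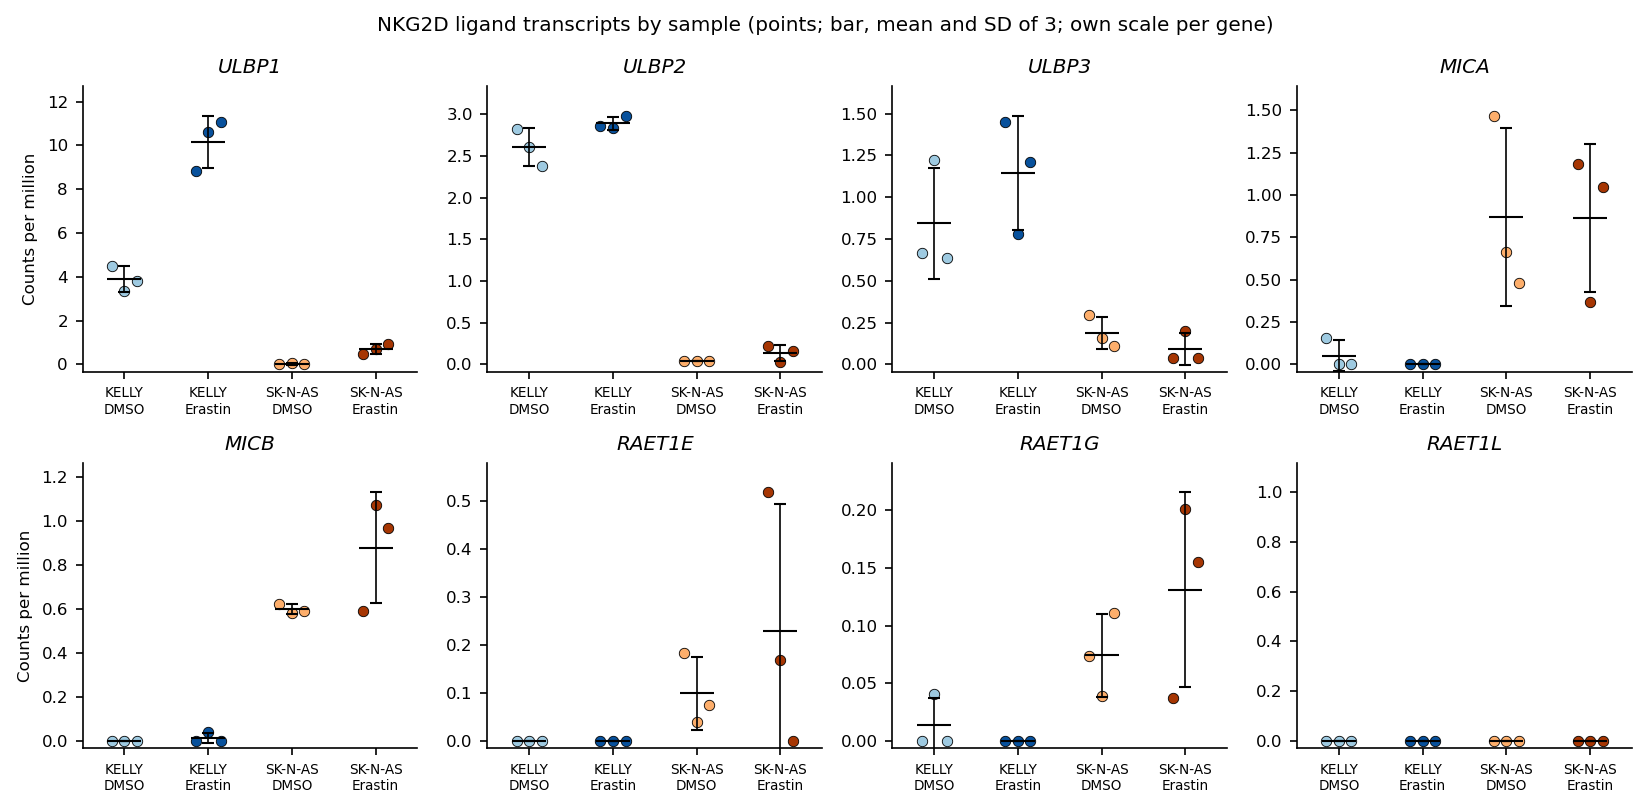
Transcript level of each NKG2D ligand in CPM (y axis, own scale per gene) in the 4 groups (x axis), with a point per sample and bars for the mean and SD of 3 samples. ULBP1 lies between 8.81 and 11.1 CPM in Erastin-treated KELLY and between 3.35 and 4.51 CPM with DMSO, MICA and MICB stay near or at 0 in KELLY, and RAET1L is at 0 in all 12 samples.

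ULBP2, the second GPI-anchored ligand, had counts of 72, 64 and 67 in the DMSO samples of KELLY and of 69, 73 and 81 in its Erastin samples. On the CPM scale the groups did not overlap, at 2.37 to 2.83 and 2.84 to 2.98 CPM, but the gap was small. The log2 fold change was 0.15 (SE 0.21, 95% interval -0.34 to 0.65, edgeR adjusted p = 0.790). With ULBP1 it made 2 of the 5 members tested in KELLY whose groups did not overlap, both higher with Erastin, while 8.43% of genes did not overlap and 4.13% were higher. In SK-N-AS, ULBP2 had 1 count in each DMSO sample and 6, 1 and 4 counts with Erastin, too few for the test across genes. The groups overlapped (exact permutation test, two-sided, p = 0.4, where the smallest possible p is 0.1). ULBP2 shares 12.1% of its 100-base transcript windows with RAET1G and RAET1L, so that counts of these genes could be split or lost by the counting.

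ULBP3 was the lowest of the 3 ULBP ligands in KELLY, with counts of 17, 30 and 18 under DMSO and 35, 20 and 33 under Erastin. The samples overlapped, and the log2 fold change was 0.45 (SE 0.41, 95% interval -0.50 to 1.40, edgeR adjusted p = 0.770). In SK-N-AS its DMSO samples had 8, 4 and 3 counts and its Erastin samples 1, 6 and 1, under the filter (exact permutation p = 0.3, two-sided).

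MICA (chr6:31399784-31415315, plus strand) and MICB (chr6:31494881-31511124, plus strand), the transmembrane ligands encoded beside the classical MHC class I genes, were read almost only in SK-N-AS. MICA counts in that line were 40, 17 and 13 under DMSO and 32, 11 and 27 under Erastin. The spread inside each group was wide and the groups overlapped, with a log2 fold change of -0.03 (SE 0.48, 95% interval -1.08 to 1.03, edgeR adjusted p = 0.996). The DMSO samples had 17, 15 and 16 MICB counts and the Erastin samples 16, 32 and 25. Erastin replicate 1 lay within the DMSO range and the other two above it, and the log2 fold change of 0.55 (SE 0.34, 95% interval -0.19 to 1.30) did not pass (edgeR adjusted p = 0.739). With ULBP1 alone not overlapping, 1 of the 5 members tested in SK-N-AS was separated between treatments, against 15% of all genes tested.

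The other 3 ligands lay under the filter on low counts in both lines. Their highest count was 14, for RAET1E in SK-N-AS Erastin replicate 1, where ULBP1 had 13. RAET1E counts in SK-N-AS were 5, 1 and 2 under DMSO and 14, 5 and 0 under Erastin (exact permutation p = 0.7, two-sided), and 0 counts in all 6 KELLY libraries. RAET1G counts there were 2, 1 and 3 under DMSO and 1, 6 and 4 under Erastin (exact permutation p = 0.4, two-sided), and at most 1 count in KELLY. RAET1L had 0 counts in all 12 libraries, which allows a level of up to 0.101 to 0.124 CPM, the worth of 3 counts in the deepest and the shallowest library. RAET1E shares 14.9% of its 100-base windows with an overlapping gene model, and RAET1E-AS1 runs antisense through exons of RAET1E and RAET1G, so these low counts are uncertain because the strand setting of the counting was not stated.

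Taken as a sum, the 8 ligands had 7.40 ± 0.684 CPM in KELLY with DMSO and 14.2 ± 1.07 CPM with Erastin (SD, n = 3 each). In SK-N-AS the sum was 1.89 ± 0.688 CPM with DMSO and 3.04 ± 0.276 CPM with Erastin. Most of the difference in KELLY lay in ULBP1, since the other ligands came to 3.51 ± 0.449 CPM with DMSO and 4.05 ± 0.349 CPM with Erastin. In SK-N-AS the sum without ULBP1 was 1.87 ± 0.706 CPM with DMSO and 2.33 ± 0.275 CPM with Erastin, a difference smaller than 1 SD of the DMSO samples. The share of ULBP1 among ligand counts was 52.5% ± 5.38 in KELLY with DMSO and 71.4% ± 3.74 with Erastin, and the ranges did not overlap (67.2% to 74.4% against 46.3% to 56.0%). In SK-N-AS the share was 1.63% ± 2.82 with DMSO and 23.2% ± 6.63 with Erastin, on 38 to 85 ligand counts per library. MICA held 34.2% to 54.8% of the ligand counts of SK-N-AS with DMSO and 13.4% to 38.6% with Erastin, ranges that overlapped. The share of ULBP2 in KELLY was 34.6% to 36.2% with DMSO, and 21.8%, 19.9% and 19.5% in Erastin replicates 1, 2 and 3. Its mean level was not lower, at 2.60 CPM with DMSO and 2.89 CPM with Erastin.

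**Figure D2:**
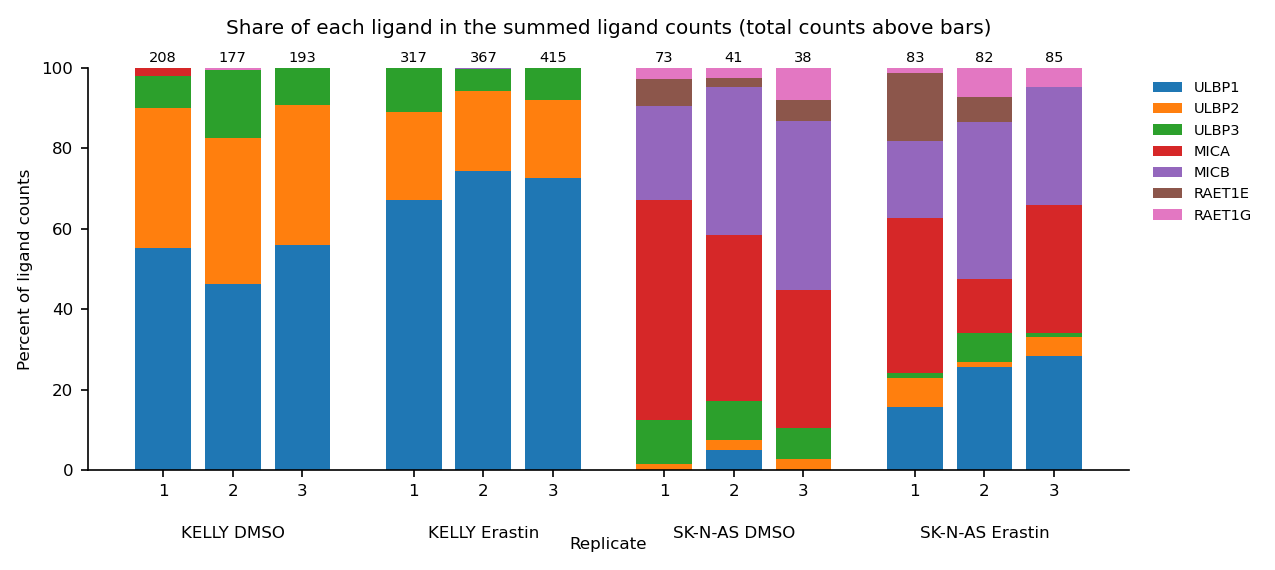
Percent of the summed ligand counts (y axis) held by each ligand in each of the 12 samples (x axis, replicates 1 to 3 of each group), with the summed ligand counts above each bar. ULBP1 fills 67.2% to 74.4% of the ligand counts in Erastin-treated KELLY and 15.7% to 28.2% in Erastin-treated SK-N-AS, where MICA and MICB hold most of the rest.

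Per kilobase of exon, the order of the transcripts differed between lines. In KELLY with DMSO it ran from ADAM10 (8.23 ± 1.46 CPM per kilobase) over ADAM17 (4.02 ± 0.379), ULBP2 (1.95 ± 0.17) and ULBP1 (1.21 ± 0.183) to ULBP3 (0.271 ± 0.106), and no neighbours in that order overlapped. With Erastin ULBP1 stood at 3.17 ± 0.371 CPM per kilobase, above ULBP2 at 2.16 ± 0.0582, and its samples overlapped those of ADAM17 at 3.69 ± 0.561, with the length of all exons. In SK-N-AS with DMSO, ADAM10 (11.1 ± 1.27) and ADAM17 (4.25 ± 0.361) were followed by MICA (0.226 ± 0.137) and MICB (0.214 ± 0.00766), which overlapped each other, and ULBP1 stood last of the ligands detected at 0.00808 ± 0.0140 CPM per kilobase. With Erastin ULBP1 was at 0.220 ± 0.0700 CPM per kilobase, and its samples overlapped those of MICA. With the longest transcript as the length in place of all exons, ADAM17 in KELLY with DMSO was at 9.75 CPM per kilobase and stayed second, and ULBP1 and ULBP2 kept their places in KELLY. With Erastin ADAM17 was then at 7.38 to 9.87 CPM per kilobase in KELLY, above the 2.75 to 3.45 of ULBP1 with no overlap. In SK-N-AS, RAET1G then passed ULBP3 with DMSO and ULBP2 with Erastin, and MICA passed MICB with Erastin.

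Between the lines with DMSO, the ligands fell into opposite sets. ULBP1, ULBP2 and ULBP3 were higher in KELLY, and MICA and MICB were higher in SK-N-AS. Each was called by the edgeR test. All of them, however, passed the filter only through the line in which they were high, so that the number of calls is no support. In this comparison 61.3% of 17089 genes were called, and 73.3% with the GC trend within each line removed. That removal leaves any GC difference between the lines in place. ULBP1 stood at 305 summed counts against 2, a ratio of 156 with a 95% counting interval of 42.8 to 1293 (log2 fold change 7.02, SE 0.62, edgeR adjusted p = 1.22e-05). Both counts were in SK-N-AS DMSO replicate 2, and without it the fitted log2 fold change was 9.68 and depends on the prior count (edgeR adjusted p = 5.65e-05). ULBP2 stood at 203 against 3, a ratio of 69.2 with an interval of 23.3 to 338 (log2 fold change 5.93, SE 0.42, edgeR adjusted p = 3.51e-06). ULBP3 was 4.43-fold higher in KELLY (2.50 to 8.37, edgeR adjusted p = 0.00577).

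MICA stood at 70 summed counts in SK-N-AS against 4 in KELLY, all 4 in DMSO replicate 1, a ratio of 17.1 with a 95% counting interval of 6.40 to 64.6 (log2 fold change of KELLY against SK-N-AS -3.98, edgeR adjusted p = 0.00494). Without that replicate KELLY with DMSO was at 0 and the fitted log2 fold change was -7.54 and depends on the prior count (edgeR adjusted p = 1.75e-04). MICB had 48 counts in SK-N-AS and 0 in each KELLY library with DMSO, and was at least 5.2-fold higher against a floor of 3 counts per library (edgeR adjusted p = 4.31e-04). The direction of all 5 held in each of the 13 alternatives that tested them, and each stayed called. The alternative that asked for at least 10 counts in every library tested none of them. The repeated calls are therefore no more support than those of the fit as reported. RAET1E had 8 counts in SK-N-AS and 0 in KELLY, with each SK-N-AS sample above 0, and 66.6% of the genes tested did not overlap between the lines (exact permutation p = 0.1, two-sided, the smallest possible). In bulk libraries, fewer cells that express a gene and less RNA per cell cannot be told apart.

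ADAM10 (chr15:58588809-58749791, minus strand), which sheds MICA, MICB and many other membrane proteins, was the highest of the 10 transcripts in both lines. In KELLY it had 154, 108 and 133 CPM with DMSO and 82.3, 136 and 126 CPM with Erastin. The groups overlapped, and the log2 fold change was -0.19 (SE 0.23, 95% interval -0.72 to 0.33, edgeR adjusted p = 0.772). In SK-N-AS it had 159, 176 and 199 CPM with DMSO and 181, 171 and 183 CPM with Erastin, with a log2 fold change of 0.00 (SE 0.10, 95% interval -0.20 to 0.21, edgeR adjusted p = 0.999). The interval of SK-N-AS holds changes of less than 0.21 on the log2 scale in either direction, whereas that of KELLY is wider.

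ADAM17 (chr2:9488486-9556732, minus strand), also known as the TNF-alpha converting enzyme, had 70.0, 58.0 and 64.3 CPM in KELLY with DMSO and 48.5, 64.9 and 63.1 CPM with Erastin. The log2 fold change was -0.12 (SE 0.17, 95% interval -0.52 to 0.28, edgeR adjusted p = 0.791). In SK-N-AS it had 63.0, 66.2 and 74.2 CPM with DMSO and 73.1, 68.1 and 76.2 CPM with Erastin, with a log2 fold change of 0.09 (SE 0.10, 95% interval -0.11 to 0.30, edgeR adjusted p = 0.872). In both lines the groups overlapped. IAH1 overlaps exons of ADAM17 on the opposite strand and had 374 to 740 counts per library, and without a stated strand setting the reads of these genes cannot be told apart where they overlap.

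Both sheddase transcripts are AT-rich (GC content 37.5% for ADAM10 and 38.5% for ADAM17), and their values followed the GC trend of the libraries. That trend was taken as Spearman's rho, over 10010 genes of the KELLY table and 9956 of the SK-N-AS table, between GC content and a library's log2 abundance relative to the mean over the same line. In KELLY it was -0.86, 0.75 and -0.52 in the DMSO libraries and 0.88, -0.72 and 0.27 in the Erastin libraries. ADAM10 was lowest in Erastin replicate 1 and next lowest in DMSO replicate 2, the libraries with the highest rho, and was highest in DMSO replicate 1, with the lowest. In SK-N-AS rho was 0.81, 0.28 and -0.81 with DMSO and -0.33, 0.50 and -0.51 with Erastin, and ADAM10 again ran from 159 CPM at the highest rho to 199 CPM at the lowest. With the trend removed, the KELLY log2 fold changes were 0.06 (SE 0.07) for ADAM10 and 0.11 (SE 0.10) for ADAM17, opposite in sign to the uncorrected values, with edgeR adjusted p of 0.813 and 0.757. ULBP1, at 43.0% GC, did not change direction.

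**Figure D3:**
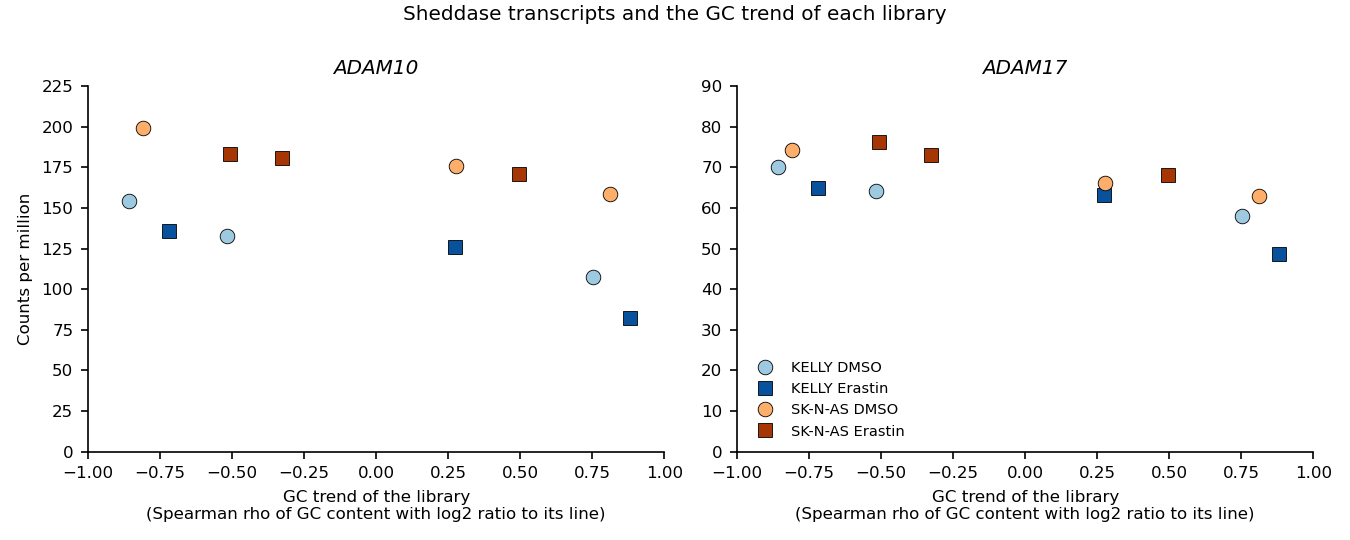
ADAM10 and ADAM17 transcript levels in CPM (y axes) against the GC trend of each library (x axes, Spearman's rho of gene GC content with log2 abundance relative to the other libraries of the line), with circles for DMSO and squares for Erastin. ADAM10 declines from the lowest rho to the highest, 154 to 82.3 CPM for the KELLY libraries and 199 to 159 CPM for the SK-N-AS libraries.

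Between the lines with DMSO, ADAM10 was lower in KELLY by the edgeR test, at 132 ± 23.4 CPM against 178 ± 20.2 CPM (log2 fold change -0.45, SE 0.17, adjusted p = 0.0416). The call was lost without SK-N-AS replicate 2 or 3 and without KELLY replicate 2 or 3, at edgeR adjusted p of 0.101 to 0.135. With the GC trend of each library within its line removed, the log2 fold change was -0.60 (edgeR adjusted p = 2.60e-05). That removal leaves any GC difference between the lines in place. ADAM17 was at 64.1 ± 6.04 CPM in KELLY and 67.8 ± 5.76 CPM in SK-N-AS and did not pass (log2 fold change -0.10, SE 0.14, edgeR adjusted p = 0.568), while with the GC trend removed it stood at -0.22 (adjusted p = 0.0470). Together both sheddases came to 196 ± 29.4 CPM in KELLY under DMSO, against 245 ± 25.9 CPM for SK-N-AS, and to 174 ± 37.5 and 251 ± 10.6 CPM with Erastin.

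**Figure D4:**
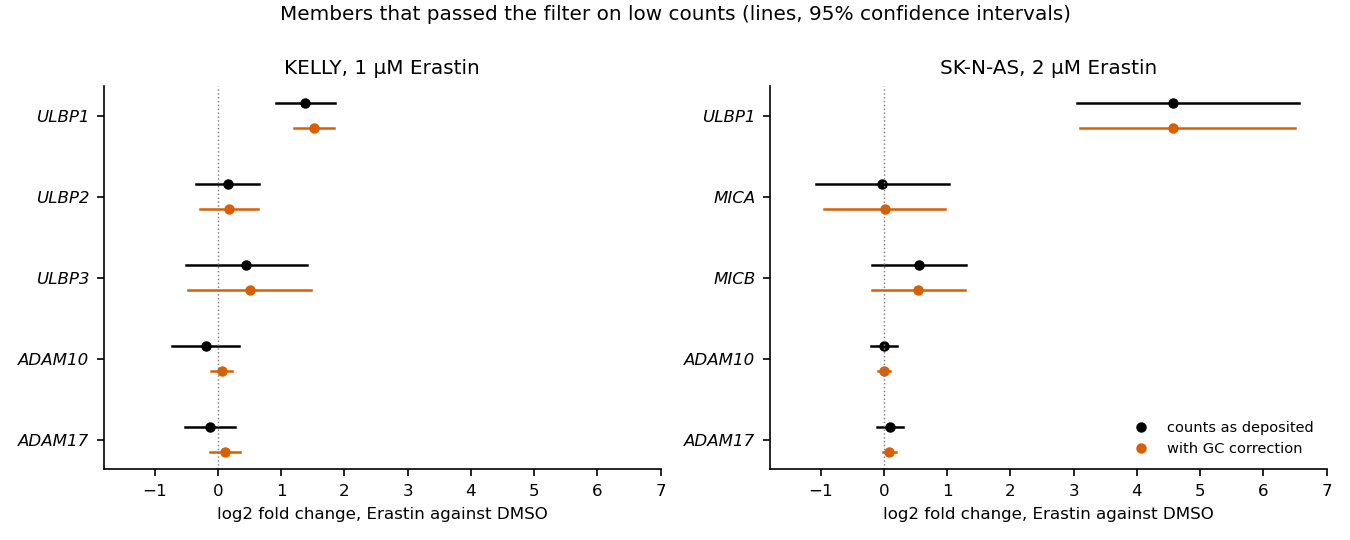
Log2 fold change of Erastin against DMSO (x axis) for the members tested in KELLY (left) and SK-N-AS (right), as points with 95% confidence intervals, on the counts as deposited (black) and with the GC trend removed (orange). The ULBP1 intervals lie above 0 in both panels (KELLY 0.91 to 1.86, SK-N-AS 3.06 to 6.56), and those of all other members hold 0.

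The genes that mature, carry and restrain the sheddases did not pass adjustment under Erastin in either line (edgeR), against 0.00615% and 0.659% of all genes. Of 11 genes for maturation and trafficking, 8 were on the higher side in KELLY and 5 were in SK-N-AS, with medians of 0.12 and 0.00 on the log2 scale beside 0.01 and -0.01 over all genes. With the GC trend removed, 5 were higher in KELLY, where the median was -0.03, and 6 in SK-N-AS, where it was 0.06. The smallest p in KELLY belonged to FURIN, the convertase that removes the ADAM prodomain (log2 fold change 0.57, SE 0.36, and 0.22 with the GC trend removed), and in SK-N-AS to TSPAN10, an ADAM10-binding tetraspanin (0.40, SE 0.26). Of the inhibitors, TIMP2 had the smallest p in KELLY (-0.21, SE 0.14, and -0.38 with the GC trend removed) and TIMP3, the inhibitor of ADAM17, in SK-N-AS (-0.04, SE 0.12). Among other enzymes of ligand shedding these were ADAM15 in KELLY (0.34, SE 0.30, but -0.08 with the GC trend removed) and, in SK-N-AS, the matrix metalloprotease MMP2 (0.14, SE 0.09). For the GPI transamidase, which attaches the anchor of the ULBP proteins, they were GPAA1 in KELLY (0.33, SE 0.28, but -0.06 with the GC trend removed) and PIGS in SK-N-AS (0.09, SE 0.10).

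Of 7 other substrates of these sheddases, TNFRSF1A, the TNF receptor, had the smallest p in KELLY (0.50, SE 0.20, and 0.33 with the GC trend removed) and HBEGF, an EGF receptor ligand, in SK-N-AS (-0.46, SE 0.13, edgeR adjusted p = 0.216). With the GC trend removed, HBEGF (-0.46, edgeR adjusted p = 0.0294) and the adhesion molecule L1CAM (0.21, adjusted p = 0.0282) passed in SK-N-AS, where 5.95% of genes did. None of the 5 DNA damage kinases, upstream of ligand induction in other settings, passed. PRKDC had the smallest p in KELLY (-0.27, SE 0.16) and CHEK2 in SK-N-AS (-0.11, SE 0.09).

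Of 13 regulators of ligand transcription, 1, ATF4, was called in SK-N-AS and 0 in KELLY on the counts as deposited, where 0.659% and 0.00615% of all genes were called by edgeR. ATF4, the transcription factor of the integrated stress response, had 2826 to 3096 counts in SK-N-AS with DMSO and 7850 to 10417 with Erastin, and rose by 1.51 on the log2 scale (SE 0.09, edgeR adjusted p = 5.16e-06). In KELLY it had 5792 to 8550 counts with DMSO and 11694 to 13833 with Erastin (log2 fold change 0.81, SE 0.19, edgeR adjusted p = 0.770). With the GC trend removed this was 0.58 (SE 0.08, edgeR adjusted p = 0.0309). DDIT3, the stress-induced C/EBP relative CHOP, had 59 to 90 counts in SK-N-AS with DMSO and 104 to 117 with Erastin, and 26 to 99 and 104 to 109 in KELLY. Its log2 fold changes were 0.54 (SE 0.18, edgeR adjusted p = 0.343) and 0.75 (SE 0.41, edgeR adjusted p = 0.770). With DMSO, ATF4 was higher in KELLY by 1.38 on the log2 scale (SE 0.17, edgeR adjusted p = 1.29e-04). The difference between its responses, KELLY minus SK-N-AS, was -0.70 (SE 0.21, edgeR adjusted p = 0.811) on the counts as deposited and -0.93 (SE 0.11, edgeR adjusted p = 0.00258) with the GC trend removed, where 0.0822% of genes passed and no member did.

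The same lists differed widely between the lines with DMSO, where 61.3% of genes did. For maturation and trafficking, 9 of 11 were lower in KELLY and 2 were higher. TSPAN10, among the 9, had 2 to 17 counts in KELLY with DMSO. It passed the filter only through SK-N-AS, so that its call is no support. The largest gap was that of RHBDF1 (log2 fold change -5.50), which with RHBDF2 (-3.12) encodes the iRhoms that escort ADAM17 to the surface, and their partner FRMD8 was at -1.38. FURIN was at -1.86 and PCSK7, another convertase, at -0.88. Of the tetraspanins that bind ADAM10, TSPAN10 (-2.62), TSPAN14 (-0.89), TSPAN17 (-0.84) and TSPAN5 (-0.63) were lower in KELLY, and TSPAN33 (2.90) and TSPAN15 (0.99) were higher. All 4 inhibitors tested were lower in KELLY, from TIMP1 at -3.27 over TIMP2 at -1.62 and RECK at -1.29 to TIMP3 at -1.15.

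Of 6 other enzymes linked to ligand shedding, 5 were lower in KELLY, with MMP14 at -8.93, MMP2 at -3.08, ADAM9 at -2.67, MMP9 at -2.24 and ADAM15 at -1.15. For the GPI transamidase, GPAA1 (-1.64), PIGK (-1.29) and PIGT (-1.06) were lower and PIGS (1.48) was higher. The regulators higher in KELLY included E2F1 (1.48), ATF4, EZH2 (0.68) and RBM4 (0.61), and the NF-kappaB subunits NFKB1 (-1.09) and RELA (-0.58) were lower. The kinases ATM (1.03) and CHEK2 (0.67) were higher. Of the other substrates CDH2 (-1.99), NOTCH1 (-1.94), TNFRSF1A (-1.87), HBEGF (-1.53) and APP (-0.50) were lower and L1CAM (1.39) was higher. All of these were called by edgeR at an adjusted p under 0.05. In KELLY with DMSO, however, MMP14 had 4 to 14 counts, MMP9 0 to 5 and NOTCH1 2 to 8. These genes passed the filter only through SK-N-AS, so that their calls are no support.

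The genes whose values followed ULBP1 most closely were found by Pearson's r of log2 CPM over the 12 samples, each line centred on its own mean, among 12359 genes. They were TARS, PSAT1 and GARS (r = 0.971 each), ZFYVE1 (0.968) and WARS (0.965). With the GC trend removed they were PSAT1 (0.977), FAM171B (0.971), EPRS (0.970), INPP5B (0.968) and MTHFD2 (0.967), so that PSAT1 was in both sets. GARS had no matched GC value, so that its own values were left uncorrected. The points of a line fall into 3 DMSO and 3 Erastin libraries, whose depth and GC trend all genes share, and the correlations are descriptions. For ADAM10 the closest were CEBPZ (0.998), CAPRIN1 (0.997) and API5 (0.995), of 39.0%, 41.5% and 38.7% GC, and with the GC trend removed TUBGCP2 (0.947), RNF214 (0.943) and NOP14 (0.936). For ADAM17 they were ARL1 (0.990), C2CD5 (0.988) and IFT74 (0.987), and with the trend removed PARP6 (0.972), BCL2L12 (0.971) and EXOSC1 (0.969). No gene of the first 3 stayed among the closest of either sheddase.

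For the other ligands the closest genes were MANSC1 (0.881), ZNF814 (0.855) and RIMKLA (0.844) for ULBP2 and RADIL (0.939), LIN7B (0.912) and FAH (0.885) for ULBP3. For MICA they were PIGL (0.857), AC068831.7 (0.837) and HAGLR (0.829), and for MICB RBSN (0.905), CCDC28A (0.898) and TBC1D9 (0.890). With the GC trend removed the closest were MANSC1 (0.917), NPRL2 (0.905) and EXO5 (0.862) for ULBP2 and UGDH (0.884), FIZ1 (0.876) and SSBP2 (0.869) for ULBP3. For MICA they were then PASK (0.947), PRDM15 (0.919) and FTX (0.917), and for MICB TBC1D9 (0.919), RBSN (0.915) and PIM1 (0.892). AC068831.7 had no matched GC value and was left uncorrected. In KELLY, the values of MICA and MICB behind these correlations were 0 in most libraries. In SK-N-AS, ULBP2 had at most 6 counts per library and ULBP3 at most 8. ULBP1, whose closest genes are given above, had at most 2 there with DMSO.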

How the data were processed

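Bulk RNA-seq was read from 12 samples. Per the labels and methods, the authors trimmed reads with Trimmomatic, aligned them to GRCh38 and deposited HTSeq raw counts per gene without normalization. The strand setting was not given in the sources used here. No deposited column was left out.

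Erastin was tested against DMSO within each line by the quasi-likelihood test of edgeR 4.0.16 under R 4.3.3 (TMM scaling after filterByExpr with default settings, Benjamini-Hochberg over all genes). DMSO samples of both lines were compared in 1 fit, and the interaction over all 12 samples. Genes were called at an adjusted p under 0.05 or, for the treatment, at the threshold of the methods. Alternatives included DESeq2 1.42.0, other filters and scaling, a GC correction within each line (loess, span 0.5) and leaving out each replicate. The code was checked on simulated counts. Members under the filter had exact permutation tests of CPM. Coordinates, lengths and GC content came from GENCODE release 44 (36271 names matched by symbol and 850 by older symbol). Counting intervals and floors cover counting error only.

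Members and lists were chosen with earlier results of these data known. All members were named. From the lists, genes at an adjusted p under 0.05, or else the smallest p in each line, were named, with ATF4 and DDIT3 always. For likeness, the 3 closest genes (5 for ULBP1) were named. A result on 1 list gene is not reported here.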

Additional observations from a re-analysis of the deposited data

How the results depend on the processing

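Of 24 fold changes of members, none called in the fit as reported changed sign in any of 360 alternative values. The 19 sign changes fell on 8 fold changes near 0 or with few counts. With the GC correction, and with it plus the replicate block, KELLY ADAM10 was 0.0588 and 0.0602, KELLY ADAM17 0.115 and 0.117, SK-N-AS MICA 0.0141 and 0.0242, the interaction of ADAM10 0.0641 and 0.0656 and that of ADAM17 0.0338 and 0.0364. With all 12 samples in 1 fit SK-N-AS ADAM10 was -0.0078. Leaving out each replicate gave -0.081 to 0.0946 for SK-N-AS ADAM10, -0.32 to 0.58 for SK-N-AS MICA, and for the interaction -0.333 to 0.00521 for ADAM10, -4.13 to 0.0294 for MICA and -0.54 to 1.85 for MICB. The causes were not tested beyond the construction of each setting.

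At an adjusted p under 0.05, 0 members were called in KELLY by edgeR, 1 (ULBP1) by DESeq2, 1 without the filter on low counts and 1 with the GC correction, and 1 member had an unadjusted p under 0.05. The other alternatives called no member in KELLY. In SK-N-AS 0 members were called where at least 10 counts were asked of every library, since ULBP1 was then not tested, and between the lines 1 was, since the ligands were not tested. At the threshold of the methods SK-N-AS members came to 0 under that filter and to 2 (ULBP1 and ULBP2) with all samples in 1 fit. Between the lines, 5 to 6 of the 7 members tested had an edgeR adjusted p under 0.05 when each replicate was left out. In those fits between 8956 of 17808 and 11769 of 17692 genes were called. The ligands among these members passed the filter only through the line in which they were high, so that these counts are no support.

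Over all genes at an adjusted p under 0.05, KELLY gave 1 gene as reported, 25 with DESeq2, 19 with no filter, 0 with the replicate block, 31 with the GC correction, 5 with both and 17 with all samples in 1 fit. SK-N-AS gave 106 as reported and 199, 265, 308, 958, 1605 and 46 in that order. The interaction gave 12 with DESeq2, 8 with no filter, 0 with the replicate block, 15 with the GC correction and 2 with both. At the threshold of the methods KELLY gave 330 as reported, 980 with no filter, 114 with the block, 194 with the block and GC correction and 767 with all samples in 1 fit, and SK-N-AS gave 429 as reported and 851 with no filter. Leaving out each replicate gave 0 to 2 genes in KELLY, 53 (without DMSO replicate 2) to 855 (without DMSO replicate 3) in SK-N-AS and 1 to 3 in the interaction at an adjusted p under 0.05. At the threshold of the methods it gave 197 (without Erastin replicate 1) to 996 (without DMSO replicate 2) in KELLY and 431 to 507 in SK-N-AS.

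Whether replicate numbers pair the samples could not be told, because the values compared still held the GC trend. Same-numbered samples correlated at -0.85, -0.89 and -0.24 in KELLY and at -0.19, 0.30 and 0.55 in SK-N-AS. DMSO replicates 2 and 3 of SK-N-AS correlated best with the Erastin sample of their own number, and no DMSO replicate of KELLY did. With the replicate block ULBP1 had an edgeR adjusted p of 0.961 in KELLY and 7.81e-05 in SK-N-AS, and ADAM10 between the lines one of 0.0948. Length by the longest transcript moved 11 of 26 levels per kilobase by more than 1 SD. At these library totals RAET1E, RAET1G, RAET1L and, in 1 line each, ULBP2, ULBP3, MICA and MICB lay under the filter. The part of sequencing depth in this was not tested.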
